A study of Homo sapiens with 18 samples.

Results

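The endoplasmic reticulum (ER) chaperones described here are 10 genes, of 13686 genes tested and 56269 listed: HSPA5, HSP90B1, DNAJB9, DNAJC3, DNAJB11, HERPUD1, SDF2L1, PDIA4, HYOU1 and CRELD2. They were chosen by name, as textbook targets of the unfolded protein response, with earlier results of these data known. All 10 passed the filter on low values. IMR90 cells, human lung fibroblasts, were grown in medium with serum and pre-incubated for 6 h with PBS, with cNSF-HA or with fNSF-HA. Both HA preparations are hyaluronan from naked mole-rat skin fibroblasts at 20 μg/ml, cNSF-HA being the control preparation with its full polymer length and fNSF-HA the partially fragmented one. Cells of 3 groups were collected at the end of the pre-incubation. Cells of the other 3 groups were then exposed to 200 μM tBHP (tert-butyl hydroperoxide, an organic peroxide used as an oxidative stressor) for 1 h and collected 5 h after the exposure had ended. Each of the 6 groups held 3 libraries of polyadenylated RNA. Because cells without tBHP were collected at the earlier time, the tBHP exposure and the further 6 h with its change of medium cannot be told apart in the values below.

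The ER folds secreted and membrane proteins. When unfolded proteins accumulate there, the sensors IRE1 (encoded by ERN1), PERK (EIF2AK3) and ATF6 signal to the nucleus: IRE1 splices the XBP1 mRNA, PERK slows translation and favours that of ATF4, and ATF6 is cut in the Golgi to release a transcription factor. XBP1 and ATF6 raise genes of folding and degradation in the ER, while ATF4 raises genes of amino acid supply, redox balance and the feedback on translation. In fibroblasts, whose main secreted product is collagen, chaperones of the ER are abundant.

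Promoters of the family hold short elements read by these factors. RefSeq promoters (build GRCh38.p14, 250 bases before to 50 after the start) matched all 10 genes by symbol. Both strands were searched for the ER stress response element ERSE (CCAAT, 9 bases of any kind, CCACG), for ERSE-II (ATTGG, 1 base, CCACG), for the core TGACGTGG of the unfolded protein response element, and for the half-site CCACG, which the first 2 elements contain. ERSE stood in 3 of the 10 promoters (HSPA5, HSP90B1 and CRELD2) and in 0.0806% of the 27305 promoters of the same length. ERSE-II stood in 3 others (HERPUD1, SDF2L1 and HYOU1) and in 0.0549% of all. The TGACGTGG core occurred in HYOU1 alone among the 10 genes and in 0.795% of all promoters, and the half-site in 9 of 10 and in 37.9% of all. DNAJB9, DNAJC3 and PDIA4 held the half-site only, and DNAJB11 none of these letters in the window. The genes are known targets of the response, so these shares describe how they were chosen. The bases before the start are shown for HSPA5, whose promoter is the reference case, and the stretch around the elements for the other 5 genes, in GRCh38.p14 and 5′ to 3′ along the gene. Capitals mark the fixed letters of ERSE, ERSE-II and the TGACGTGG core. In HYOU1 the core and the first ERSE-II share their CGTGG.
HSPA5, chr9:125241344-125241593, - strand: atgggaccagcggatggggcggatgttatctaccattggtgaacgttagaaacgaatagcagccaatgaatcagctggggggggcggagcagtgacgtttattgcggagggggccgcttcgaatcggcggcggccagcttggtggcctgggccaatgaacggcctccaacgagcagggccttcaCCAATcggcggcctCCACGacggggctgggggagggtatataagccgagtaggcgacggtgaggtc
HSP90B1, chr12:103930201-103930354, + strand: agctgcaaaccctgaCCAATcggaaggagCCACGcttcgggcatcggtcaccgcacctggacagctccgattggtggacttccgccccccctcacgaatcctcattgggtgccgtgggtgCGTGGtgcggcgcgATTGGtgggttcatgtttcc
CRELD2, chr22:49918539-49918587, + strand: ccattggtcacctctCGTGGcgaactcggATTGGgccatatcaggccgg
HERPUD1, chr16:56932010-56932050, + strand: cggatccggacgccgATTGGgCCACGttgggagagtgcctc
SDF2L1, chr22:21642099-21642139, + strand: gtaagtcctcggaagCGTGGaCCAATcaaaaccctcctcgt
HYOU1, chr11:119057259-119057408, - strand: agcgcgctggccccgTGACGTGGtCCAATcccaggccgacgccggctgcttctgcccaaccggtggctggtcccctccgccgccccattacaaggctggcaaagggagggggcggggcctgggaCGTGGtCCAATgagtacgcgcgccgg

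Libraries held 20261103 to 26287660 reads on genes, and levels are given as normalized counts, the reads on a gene divided by the size factor of its library. The 11 fibroblast markers summed to between 1032330 and 1382678 normalized counts in every library. Of the markers of other cell types, the defining EPCAM, CDH1, KRT5, SFTPC, PECAM1 and CDH5 had under 10 normalized counts in every library. CLDN4 (691 to 1517), KRT19 (76.6 to 196), TIE1 (335 to 649) and VWF (3.73 to 24.97) were present in every library. The 6 epithelial markers summed to 1512 to 1701 without tBHP and 773 to 1616 with it, and the 5 endothelial markers to 342 to 386 without and 395 to 676 with it. Their part in the results was not tested. The 6 leukocyte markers together reached at most 19.0. In cells without tBHP, the 10 genes took 0.340% of all reads after PBS, 0.333% after cNSF-HA and 0.338% after fNSF-HA. With tBHP these shares were 0.537%, 0.576% and 0.600%. In bulk RNA, fewer cells that express a gene and less RNA per cell cannot be told apart.

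Before tBHP, the mean level per kilobase of exon in PBS cells was highest for HSP90B1, at 12359 normalized counts per kilobase, followed by HSPA5 at 5477 and PDIA4 at 3223. HYOU1 (617), HERPUD1 (528), CRELD2 (508), DNAJB11 (500.2) and SDF2L1 (398) formed a middle group on the same scale. DNAJC3 at 290 and DNAJB9 at 110.4 were the lowest. After tBHP, HSPA5 stood first, at 14813 against 13304 for HSP90B1 after PBS, at 16078 against 14556 after cNSF-HA and at 16351 against 15763 after fNSF-HA. 

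**Figure D1:**
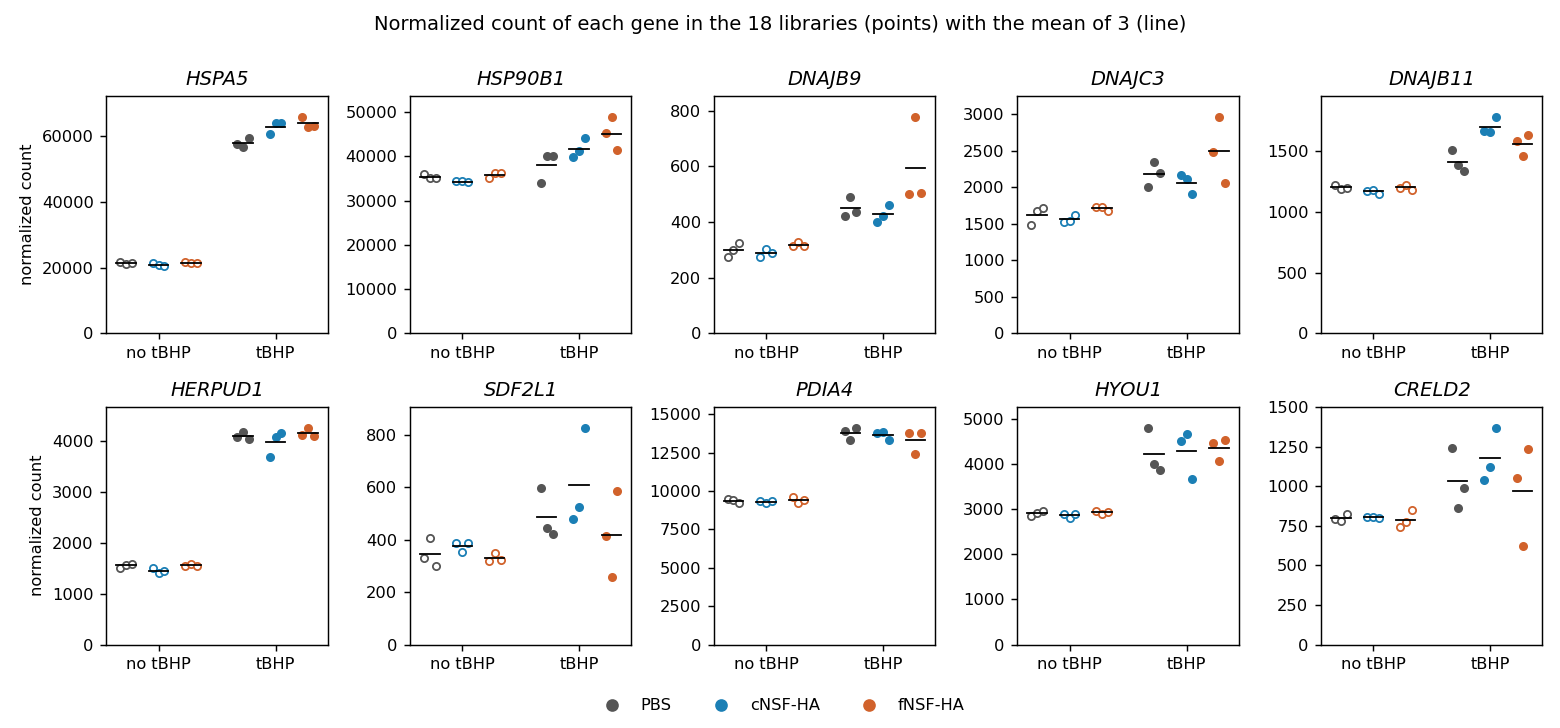
Normalized counts (vertical axes, each from 0) of the 10 genes in the 18 libraries. Open points are libraries without tBHP, filled points libraries with tBHP, colours are pre-incubations and lines are means of 3. HSPA5 and HERPUD1 separate fully by tBHP, while SDF2L1 and CRELD2 spread widely among libraries with tBHP.

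The first question was how this family responded to the oxidant, and whether the pre-incubation altered that response. With limma on log2 values, 7 of the 10 genes rose with tBHP after PBS, 10 after cNSF-HA and 8 after fNSF-HA, and 0 fell. Of all genes tested, 24.2%, 24.0% and 19.2% rose in these 3 comparisons, and 26.9%, 26.8% and 22.7% fell. The median log2 change of the 10 genes was 0.51, 0.56 and 0.52, against 0.0043, -0.00053 and -0.034 over all genes tested. All 3 libraries with tBHP lay above all 3 without for 9 genes after PBS (31.8% of all genes), for 10 after cNSF-HA (31.4%) and for 8 after fNSF-HA (22.6%).

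HSPA5 encodes BiP, the ER Hsp70 that binds unfolded chains and holds the 3 sensors inactive. In PBS cells it had 21677, 21037 and 21497 normalized counts without tBHP and 57497, 56649.6 and 59517 with it. In cNSF-HA cells it went from 21264, 20873 and 20555 to 60542, 63933 and 64023. In fNSF-HA cells it went from 21604, 21330.1 and 21505 to 65770.3, 62719 and 63214. The lowest library with tBHP was thus far above the highest without, and replicates lay close together, with SDs of 330.0 without and 1473 with tBHP in PBS cells. The log2 change was 1.44 after PBS (standard error 0.048, adjusted p = 3.26e-13), 1.59 after cNSF-HA (adjusted p = 1.61e-13) and 1.57 after fNSF-HA (adjusted p = 1.46e-13) in limma's test. These are folds of 2.70 (95% confidence interval 2.52 to 2.90), 3.01 (2.80 to 3.23) and 2.97 (2.77 to 3.19). By p-value HSPA5 ranked 5, 1 and 2 among the 13686 genes. By rise in normalized counts in PBS cells it ranked 8, and by log2 change 210. Its share of all reads was 0.0971% in PBS cells without tBHP and 0.251% with it.

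HERPUD1, a membrane protein that helps recruit the degradation machinery of the ER, was the other gene with a large response. Its normalized counts in PBS cells were 1511, 1571 and 1583 without tBHP and 4081, 4179 and 4043 with it. After cNSF-HA they were 1497, 1409 and 1440.2 against 3689, 4068 and 4157, and after fNSF-HA 1553, 1587 and 1540.1 against 4116, 4246 and 4092. The 3 groups with tBHP covered one narrow range, and none of its libraries came near the range without tBHP. The log2 change was 1.40, 1.45 and 1.41 in PBS, cNSF-HA and fNSF-HA cells (standard error 0.058, largest adjusted p = 3.89e-12, limma). Across the 18 libraries HERPUD1 was the gene of the 10 closest to HSPA5, with r = 0.996, a description over libraries that share the tBHP contrast.

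HSP90B1, the ER Hsp90 known as GRP94, was the most abundant of the 10 before tBHP and changed least in PBS and cNSF-HA cells. PBS cells had 36119, 35062 and 35046 normalized counts without tBHP and 34068, 40174 and 40108 with it. With tBHP, replicate 1 lay below every library without, so the groups overlapped, and the log2 change of 0.10 (95% interval -0.045 to 0.25) did not pass (adjusted p = 0.235, limma). It passed without that library (log2 change 0.18, adjusted p = 0.0349), with TMM scaling (adjusted p = 0.0375), with library weights (adjusted p = 0.00151) and in edgeR (adjusted p = 0.0342), and over all settings tried its adjusted p ran from 2.55e-08 to 0.528. With each library left out in turn, the change ran from 0.062 to 0.18. In cNSF-HA cells HSP90B1 rose from 34365, 34465 and 34146 to 39853, 41136 and 44119.9. In fNSF-HA cells it rose from 35047, 36216 and 36161 to 45213, 48869 and 41399.8. Neither pair of groups overlapped, and the log2 changes were 0.28 (adjusted p = 0.00294) and 0.33 (adjusted p = 0.000936) in limma's test. Under quantile normalization these 2 changes were 0.052 and 0.17 and did not pass, and the change in PBS cells was -0.078.

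The J-domain proteins DNAJB9, DNAJC3 and DNAJB11 (ERdj4, p58IPK and ERdj3), which hand substrates to BiP and drive its ATPase, rose in every pre-incubation. DNAJB9 had 275, 298 and 326 normalized counts in PBS cells without tBHP and 422, 489.9 and 437 with it, a log2 change of 0.58 (adjusted p = 0.0013, limma). In fNSF-HA cells DNAJB9 went from 314, 329 and 312 to 502, 777 and 503, so that replicate 2 stood above the other 2 libraries. The log2 change there was 0.87 (adjusted p = 4.22e-05, limma), and 0.66 without that library. In cNSF-HA cells it was 0.56.

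DNAJC3 rose by log2 changes of 0.43, 0.40 and 0.53 in PBS, cNSF-HA and fNSF-HA cells (largest adjusted p = 0.00323, limma), with means of 1619 ± 122, 1558 ± 49.3 and 1709 ± 33.6 before (SD, n = 3) and 2179 ± 169, 2064 ± 141 and 2501 ± 451 after. DNAJB11 had 1217, 1186 and 1196 normalized counts in PBS cells without tBHP and 1510.5, 1384 and 1338 with it. In cNSF-HA cells it had 1173, 1183 and 1144 without and 1665, 1654 and 1778 with tBHP. Its log2 changes were 0.23 (adjusted p = 0.0062), 0.54 (adjusted p = 2.55e-06) and, in fNSF-HA cells, 0.37 (adjusted p = 0.000153) in limma's test. Exons of DNAJB9 overlap those of THAP5 on the other strand over 183 bases (6.74% of its exon bases), and exons of DNAJB11 overlap those of TBCCD1 over 381 bases (15.9%). The library kit does not mark the strand. Mean levels were 462 for THAP5 and 396 for DNAJB9, and 240.0 for TBCCD1 and 1372 for DNAJB11, so reads of the shared stretches may be of either gene, and their part in these changes was not tested. DNAJB11 also overlaps AC068631.2 on the same strand over 451 bases (18.8%), and HYOU1 overlaps AP003392.3 on the other strand over 666 bases (14.1%). HSP90B1 overlaps MIR3652 on the same strand over 131 bases (4.57%). These overlapping genes have no values here, and their part was not tested either.

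PDIA4, a disulfide isomerase of the ER, and HYOU1, a large Hsp70 relative that exchanges the nucleotide of BiP, rose in every pre-incubation. PDIA4 had 9461, 9389 and 9222 normalized counts in PBS cells without tBHP and 13912, 13339 and 14075 with it, with no overlap. Its log2 changes were 0.56, 0.55 and 0.50 (standard error 0.053, largest adjusted p = 6.67e-07, limma). HYOU1 went from 2860.1, 2928 and 2956 to 4798, 4009.8 and 3877 in PBS cells. Its log2 changes were 0.53, 0.57 and 0.57 (standard error 0.087, largest adjusted p = 7.13e-05, limma), with SDs up to 544 normalized counts among libraries with tBHP.

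SDF2L1, a partner of ERdj3, and CRELD2, a secreted chaperone of matrix proteins, had the largest spread. SDF2L1 had 329, 405 and 299 normalized counts in PBS cells without tBHP and 598, 445 and 421 with it. After cNSF-HA it had 389, 353 and 388 without and 479.6, 526 and 825 with tBHP. After fNSF-HA it had 319, 351 and 322 without and 414, 256 and 585 with it. The last group reached below and above all 3 libraries without tBHP. The log2 changes were 0.50 (adjusted p = 0.0833), 0.65 (adjusted p = 0.0256) and 0.26 (adjusted p = 0.393) in limma's test, and the differences between these changes did not pass. In PBS cells SDF2L1 passed with only the compared groups in the fit (adjusted p = 0.0116) and with library weights (adjusted p = 0.0145). Without replicate 3 of the cNSF-HA cells with tBHP the change there was 0.42 (adjusted p = 0.167), and it did not pass without replicate 2 (adjusted p = 0.076) or 3 (adjusted p = 0.0512) of the cNSF-HA cells without tBHP. Without replicate 2 of the fNSF-HA cells with tBHP the change there was 0.57 (adjusted p = 0.0171, limma). Without replicate 3 of that group it was -0.020. Over all settings the adjusted p ran from 0.0116 to 0.344 in PBS cells, from 0.000323 to 0.183 in cNSF-HA cells and from 0.00108 to 0.948 in fNSF-HA cells.

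CRELD2 had 796, 782 and 827 normalized counts in PBS cells without tBHP and 1246, 866 and 992 with it. In cNSF-HA cells it had 808, 808 and 798 without tBHP and 1042, 1125 and 1367 with it. In fNSF-HA cells it had 742, 773 and 852 against 1055, 623 and 1235, and only there did the groups overlap. The log2 changes were 0.35 (adjusted p = 0.11), 0.54 (adjusted p = 0.018) and 0.24 (adjusted p = 0.294) in limma's test. Without replicate 3 of the cNSF-HA cells with tBHP the change was 0.43 (adjusted p = 0.0913), and without replicate 2 of the fNSF-HA cells with tBHP the change there was 0.54 (adjusted p = 0.0012, limma). Without replicate 3 of the latter group it was 0.043 (adjusted p = 0.861, limma). In PBS cells the change was 0.21 (adjusted p = 0.399, limma) without replicate 1 with tBHP, and CRELD2 passed with only the compared groups in the fit (adjusted p = 0.0187) and with library weights (adjusted p = 0.00314). Over all settings the adjusted p ran from 0.00314 to 0.537 in PBS cells, from 2.39e-06 to 0.0913 in cNSF-HA cells and from 1.93e-07 to 0.861 in fNSF-HA cells.

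**Figure D2:**
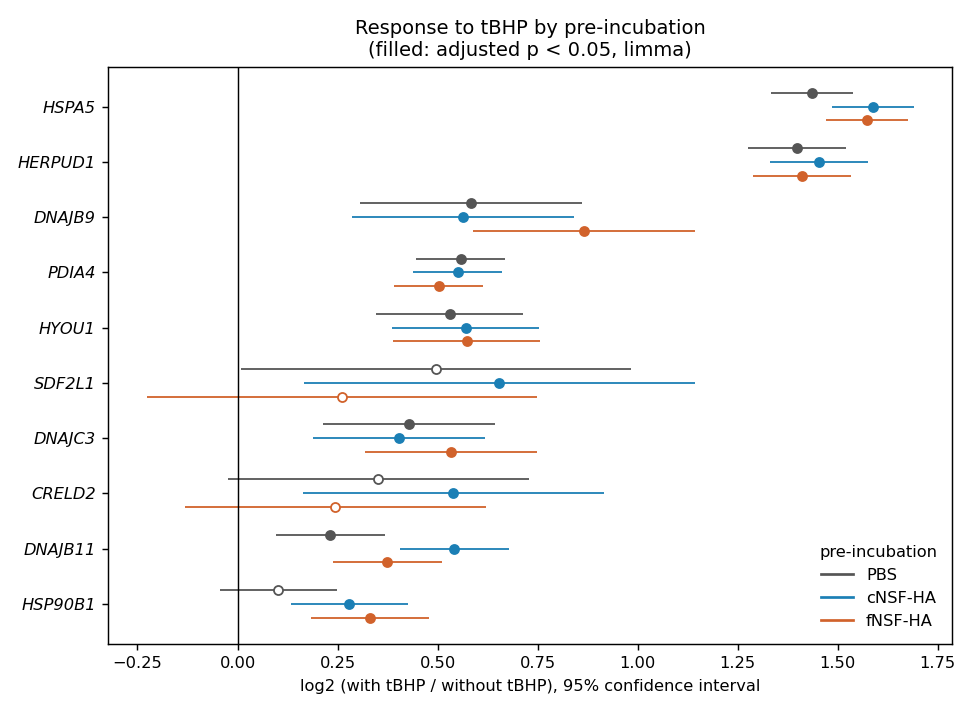
Log2 change with tBHP (horizontal axis) of each gene in PBS, cNSF-HA and fNSF-HA cells, as points with 95% confidence intervals from limma, filled where the adjusted p was under 0.05. HSPA5 and HERPUD1 stand apart at 1.40 to 1.59, and the intervals of SDF2L1 and CRELD2 are the widest.

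The spread of SDF2L1, CRELD2, DNAJB9 and DNAJC3 among libraries with tBHP went with the GC content of their transcripts. GC content ran from 39.9% for DNAJC3 and 40.4% for DNAJB9 through 46.0% for HSPA5 and 47.9% for HERPUD1 to 60.7% for CRELD2 and 65.5% for SDF2L1. In replicate 2 of the fNSF-HA cells with tBHP, SDF2L1 and CRELD2 lay 0.94 and 0.87 log2 units below the mean of replicates 1 and 3, while DNAJB9 and DNAJC3 lay 0.63 and 0.39 above it. HSPA5 and HERPUD1, of middling GC content, differed there by -0.040 and 0.049. Over the 10 genes, which share each library, the correlation of GC content with the deviation from the group mean was -0.95 in that library, 0.97 in replicate 3 of the same group and 0.95 in replicate 1 of the PBS cells with tBHP. In the other 6 libraries with tBHP it lay between -0.89 and 0.67. Over all genes with a GC value, the deviation was taken from the mean of all libraries with tBHP, not from the group mean. In replicate 2 of the fNSF-HA cells its median went from 0.46 at the lowest GC content to -0.71 at the highest. It went from -0.067 to 0.16 in replicate 3 of that group and from -0.24 to 0.28 in replicate 1 of the PBS cells. In replicate 1 of the fNSF-HA cells (r = 0.67 over the 10 genes) it went from 0.13 to -0.16. In cNSF-HA cells it went from -0.081 to 0.10 in replicate 1 (r = -0.56) and from -0.074 to 0.12 in replicate 2 (r = -0.44). In replicate 3 of that group (r = 0.53) it went from -0.16 to 0.29. In PBS cells it went from 0.095 to -0.026 in replicate 2 (r = -0.89), and lay between -0.011 and 0.017 in replicate 3 (r = -0.70). Since the 2 references differ, directions over all genes and over the 10 genes are not directly comparable in these values. The within-group SD pooled over the 3 groups with tBHP was 0.040 log2 units for HSPA5, 0.057 for HERPUD1, 0.35 for CRELD2 and 0.45 for SDF2L1.

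**Figure D3:**
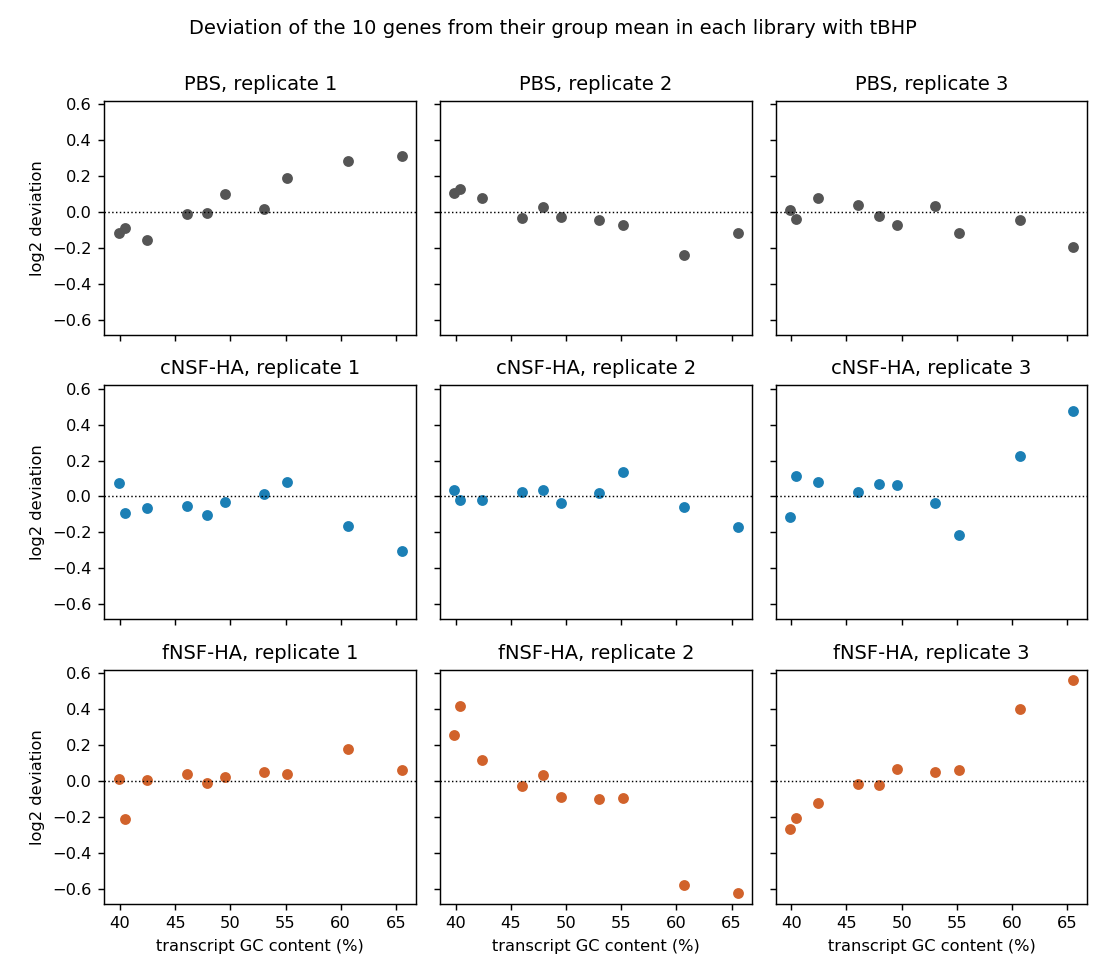
Deviation of each of the 10 genes from its group mean (vertical axis, log2) against transcript GC content (horizontal axis, percent) in the 9 libraries with tBHP, 1 panel per library. Points slope down in replicate 2 and up in replicate 3 of the fNSF-HA cells, from 39.9% GC (DNAJC3) to 65.5% (SDF2L1).

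With the part of each library's values that followed transcript GC content and length removed, 8 genes rose in each pre-incubation and 0 fell, where 28.5%, 28.4% and 28.0% of all genes rose in PBS, cNSF-HA and fNSF-HA cells. SDF2L1 and CRELD2 were the 2 that did not pass: their log2 changes were 0.11 and 0.054 after PBS, 0.15 and 0.15 after cNSF-HA and 0.20 and 0.15 after fNSF-HA (smallest adjusted p = 0.0728, limma). Genes of low GC content moved the other way. DNAJC3 changed by 0.80, 0.80 and 0.76, DNAJB9 by 0.94, 0.85 and 1.04, and HSP90B1 by 0.36, 0.49 and 0.44, all past the threshold (largest adjusted p = 2.6e-08, limma). HSPA5 changed by 1.496, 1.68 and 1.59 and HERPUD1 by 1.39, 1.45 and 1.37. The rises of HYOU1 and PDIA4 were smaller in this fit, at 0.32, 0.43 and 0.50 and at 0.40 in each pre-incubation, and passed (largest adjusted p = 2.33e-05, limma). A fit of this kind also removes any true response that goes with GC content, and which of the 2 it removed here was not tested.

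The 10 genes varied together over all libraries, and in both directions within groups. Over all 18 libraries each of the 45 pairs was positively correlated, with a median r of 0.78, since the tBHP contrast is in every pair. With group means removed, 24 of 45 pairs were positive and the median r was 0.079. The highest was 0.86, between SDF2L1 and CRELD2, and the lowest -0.95, between DNAJB9 and PDIA4. Outside the family, the genes most like the mean standardized profile of the 10 over the 18 libraries were PGD, YARS, FKBP4, SARS and AHSA1, with r from 0.992 to 0.994. With group means removed they were ATP6V1H, IL11, CDK2AP1, IMPDH2 and PSMB1, with r from 0.851 to 0.911.

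Without tBHP, no gene of the 10 differed between pre-incubations in limma's test: 0 passed for cNSF-HA against PBS, fNSF-HA against PBS or cNSF-HA against fNSF-HA, and 0% of all genes passed in each. Unadjusted p-values under 0.05 numbered 0 of the 10 in each comparison, and edgeR and DESeq2 called 0. The gene with the smallest p was HERPUD1 for cNSF-HA against PBS (log2 difference -0.10) and against fNSF-HA (-0.11), and DNAJC3 for fNSF-HA against PBS (0.080, and 0.017 without replicate 1 of the PBS cells). For HSPA5 the 95% intervals were -0.14 to 0.067, -0.097 to 0.11 and -0.14 to 0.062 for these 3 comparisons. The 3 cNSF-HA libraries lay below all 3 PBS libraries for 3 of the 10 genes (8.33% of all genes) and below all 3 fNSF-HA libraries for 5 (17.1% of all genes), the latter being HSPA5, HSP90B1, DNAJB9, DNAJC3 and HERPUD1. They lay above all 3 fNSF-HA libraries for 1 gene, SDF2L1 (7.91% of all genes). The largest of these 5 differences was that of DNAJB9, at -0.14 on the log2 scale.

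With tBHP, again 0 of the 10 genes passed in limma's test for cNSF-HA against PBS (0% of all genes), fNSF-HA against PBS (0.139%) or cNSF-HA against fNSF-HA (0%), while 2, 4 and 3 of the 10 had an unadjusted p under 0.05, as did 8.64%, 22.7% and 32.2% of all genes. HSPA5 nevertheless had no overlap: all cNSF-HA libraries and all fNSF-HA libraries with tBHP lay above all 3 PBS libraries with tBHP. Its log2 differences from PBS were 0.12 (95% interval 0.016 to 0.22, adjusted p = 0.558) and 0.14 (0.041 to 0.24, adjusted p = 0.135) in limma's test, and 0.17 (adjusted p = 0.134) and 0.083 (adjusted p = 0.423) with the trend of GC content and length removed. For cNSF-HA, DNAJB11 also lay wholly above PBS, and for fNSF-HA so did HSP90B1 and DNAJB9, making 2 and 3 of the 10 genes, against 4.57% and 6.86% of all genes. Both comparisons share the 3 PBS libraries. Between cNSF-HA and fNSF-HA with tBHP, DNAJB11 lay wholly above (1 of the 10 genes, against 5.07% of all genes) and DNAJB9 wholly below (1 of the 10, against 8.29%).

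DNAJB11 had the smallest p for cNSF-HA against PBS with tBHP, at 0.27 on the log2 scale (adjusted p = 0.386, limma; standard error 0.065). HSP90B1 had it for fNSF-HA against PBS (0.25, standard error 0.070, adjusted p = 0.104, limma), and DNAJB9 for cNSF-HA against fNSF-HA (-0.44, standard error 0.13, adjusted p = 0.0981, limma). DNAJB9 rested on replicate 2 of the fNSF-HA cells, at 777 normalized counts: without it the difference was -0.24. DESeq2 on the recovered reads called DNAJB11 in the first comparison (adjusted p = 0.048), HSPA5 (0.0181) and HSP90B1 (0.032) in the second and DNAJB9 (0.038) in the third, and edgeR called 0 in each. Of all genes DESeq2 called 0.0658%, 3.30% and 5.79%. Without replicate 3 of the fNSF-HA cells with tBHP, limma called 4 of the 10 genes for fNSF-HA against PBS and 4 for cNSF-HA against fNSF-HA, the latter 2 higher and 2 lower, where it called 29.4% and 40.8% of all genes. With library weights limma called 1, 5 and 4 of the 10 genes in the 3 comparisons, against 0.511%, 20.4% and 38.6% of all genes, and 3 for the difference in response of fNSF-HA against PBS, against 7.61%. The weights of replicates 1, 2 and 3 of the fNSF-HA cells with tBHP were 6.79, 0.10 and 0.24, so that replicate 1 largely set that group's values in this fit. For SDF2L1 the difference between cNSF-HA and fNSF-HA was 0.58 with a 95% interval of 0.092 to 1.07 and an adjusted p of 0.11 from limma, the widest interval of the 10 in this comparison. It was 0.27 (adjusted p = 0.626) without replicate 2 of the fNSF-HA cells with tBHP, 0.34 (adjusted p = 0.382) without replicate 3 of the cNSF-HA cells with tBHP and 0.86 (adjusted p = 0.00485) without replicate 3 of the fNSF-HA cells with tBHP in limma's test. With the trend of GC content and length removed, this difference was 0.016 (adjusted p = 0.95), that of HSP90B1 between fNSF-HA and PBS 0.087 (adjusted p = 0.259) and that of DNAJB9 between cNSF-HA and fNSF-HA -0.26 (adjusted p = 0.164), while that of DNAJB11 between cNSF-HA and PBS was 0.26 (adjusted p = 0.071), all from limma.

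**Figure D4:**
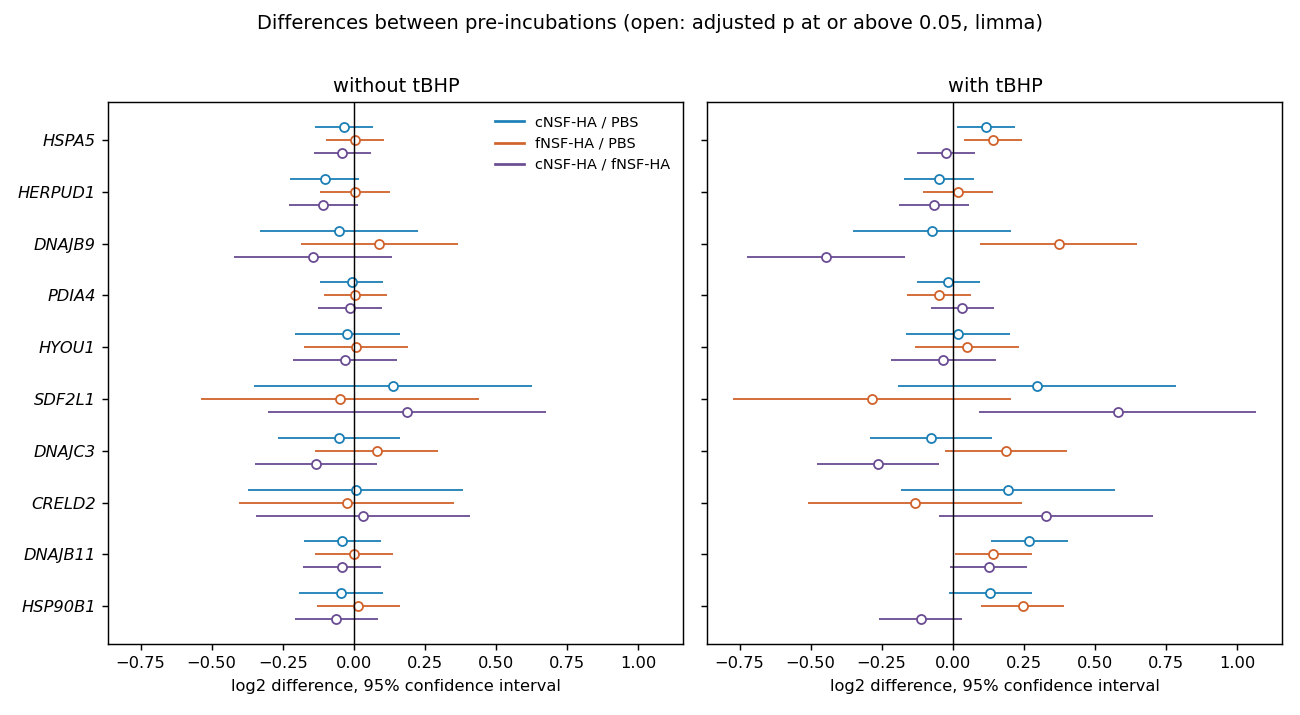
Log2 differences between pre-incubations (horizontal axes, 95% confidence intervals from limma) of the 10 genes, without tBHP on the left and with tBHP on the right. Every point is open, since 0 of the 10 genes passed in any of the 6 comparisons, and intervals with tBHP reach from -0.77 to 1.07.

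The response itself was compared between pre-incubations by an interaction term in the same fit. Of the 10 genes, 0 passed for cNSF-HA against PBS, for fNSF-HA against PBS and for cNSF-HA against fNSF-HA (0% of all genes in each, smallest adjusted p of the 10 = 0.667, limma), as did 0 in edgeR and DESeq2. Unadjusted p-values under 0.05 numbered 2, 1 and 0 of the 10, against 4.06%, 6.88% and 3.89% of all genes. DNAJB11 had the smallest p for cNSF-HA, its response being larger than in PBS cells by 0.31 log2 units (95% interval 0.12 to 0.50, adjusted p = 0.999, limma). HSP90B1 had it for fNSF-HA, by 0.23 (0.021 to 0.44, adjusted p = 0.667, limma), and by 0.086 with the trend of GC content and length removed. DNAJB11 had it for cNSF-HA against fNSF-HA, by 0.17 (-0.025 to 0.36, adjusted p = 0.71, limma). For HSPA5 the responses in cNSF-HA and fNSF-HA cells exceeded that in PBS cells by 0.15 (0.0085 to 0.30) and 0.14 (-0.0068 to 0.28) log2 units and differed from each other by 0.015 (-0.13 to 0.16). For HERPUD1 the corresponding values were 0.054, 0.013 and 0.041.

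The rest of the pathway was read from 6 lists, written with earlier results of these data known, and it did not move as one. Beside the counts that follow, 24.2%, 24.0% and 19.2% of all genes rose and 26.9%, 26.8% and 22.7% fell in PBS, cNSF-HA and fNSF-HA cells. All 10 genes listed as targets of the PERK arm rose in each pre-incubation. Their medians were 2.32, 2.47 and 2.22 log2 units in PBS, cNSF-HA and fNSF-HA cells, above the 0.51 to 0.56 of the ER chaperones. Whether PERK raised them was not tested. ATF3, a stress transcription factor, went from 37.5 to 618 normalized counts in PBS cells (log2 change 4.01), and TRIB3, a pseudokinase that restrains ATF4, from 282 to 3802 (3.74). Among sensors and transcription factors, 5, 4 and 4 of 9 rose and 1 fell in each. DDIT3, which encodes CHOP, rose by 2.92, ATF4 by 1.40, XBP1 by 1.14 and ERN1 by 0.69 log2 units in PBS cells (largest adjusted p of these 4 = 4.06e-05, limma). EIF2AK3 and ATF6 had log2 changes of 0.078 (adjusted p = 0.566) and -0.11 (adjusted p = 0.349) in limma's test. With GC content and length adjusted for, EIF2AK3 passed at 0.21, 0.22 and 0.28 in PBS, cNSF-HA and fNSF-HA cells (largest adjusted p = 0.018) and ATF6 at 0.18, 0.19 and 0.15 (largest adjusted p = 0.00382, limma). MBTPS2, a protease that releases ATF6, fell by 0.65. Gene-level values hold no measure of XBP1 splicing or ATF6 cleavage.

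Among 23 other folding enzymes and chaperones of the ER, 12, 14 and 14 rose and 3, 2 and 2 fell in PBS, cNSF-HA and fNSF-HA cells. MANF, a secreted factor of the ER lumen, rose by 0.88 and CALR, the lectin chaperone calreticulin, by 0.52 log2 units in PBS cells, whereas the reductase DNAJC10 fell by 0.67 and the prolyl isomerase FKBP14 by 0.56. Of 16 genes of ER-associated degradation, 8, 8 and 6 rose and 4, 3 and 2 fell, the latter no larger a share than over all genes. SYVN1, the ubiquitin ligase HRD1, rose by 1.07 and VCP, the ATPase that extracts substrates, by 0.46, while the ligase RNF139 fell by 0.61 and the lectin ERLEC1 by 0.40. Of 17 genes of translocation into and export from the ER, 2, 3 and 2 rose and 8, 5 and 7 fell, of which the 5 that fell in cNSF-HA cells are near the share over all genes. SSR2, of the translocon-associated complex, rose by 0.29 and SEC61A1, the channel itself, by 0.14 log2 units, while SSR3 of the same complex as SSR2 fell from 14919 to 7173 normalized counts (-1.06) and SRPRB, of the signal recognition particle receptor, by 0.53. SEC61A1 did not pass with any of the 3 PBS libraries without tBHP, or replicate 1 with tBHP, left out. Nor did it pass with no filter on low values (adjusted p = 0.182, limma). With GC content and length adjusted for, MBTPS2 (-0.085), DNAJC10 (-0.14), ERLEC1 (-0.074) and SEC61A1 (-0.035) no longer passed (adjusted p from 0.0969 to 0.349, limma). FKBP14 (-0.13), SSR3 (-0.69), SSR2 (0.12) and CALR (0.33) passed with smaller changes (largest adjusted p = 0.00774, limma).

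Of 8 relatives of these chaperones outside the ER, 5, 6 and 6 rose and 1, 1 and 2 fell. The mitochondrial HSPA9 rose by 0.54 and the cytosolic HSP90AB1 by 0.51 log2 units in PBS cells, and the cytosolic HSPA8, a relative of HSPA5, fell from 63522 to 48677 normalized counts (-0.38, adjusted p = 8.8e-06, limma). HSP90AB1 thus had a log2 change of 0.51 where its ER relative HSP90B1 had 0.10, and under quantile normalization HSP90AB1 had 0.33 and HSPA8 -0.61. With the trend of GC content and length removed HSP90B1 had 0.36, and over all settings HSP90AB1 ran from 0.33 to 0.58. The difference between HSP90AB1 and HSP90B1 was not tested.

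**Figure D5:**
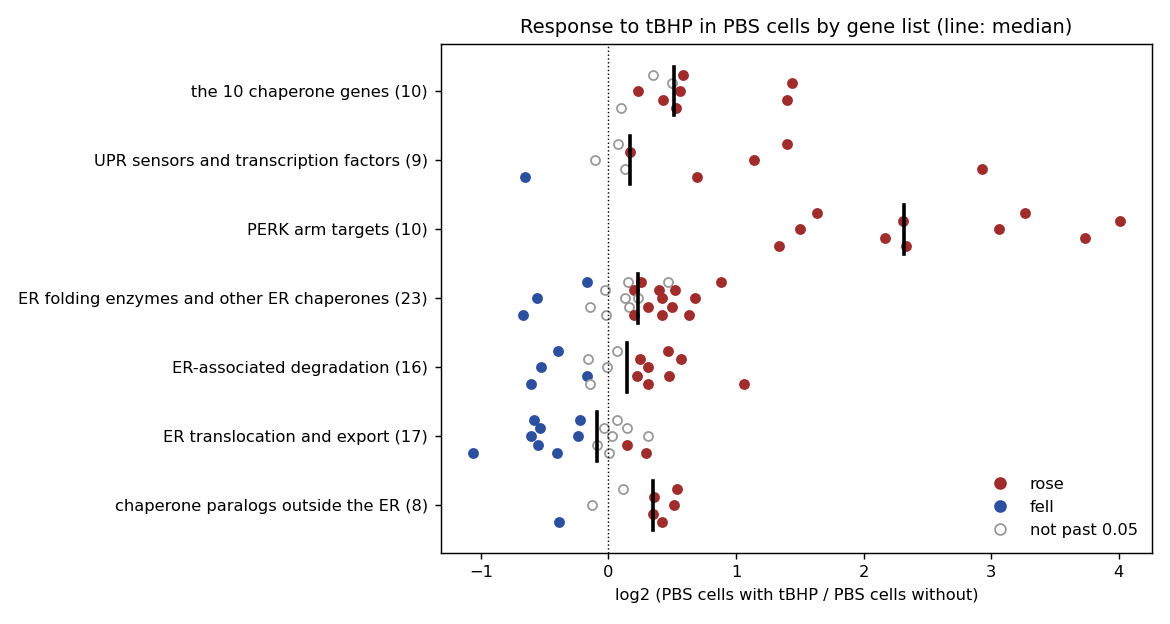
Log2 change with tBHP in PBS cells (horizontal axis) of the 10 ER chaperone genes and of 6 lists of the pathway and its relatives, with the number of genes tested in brackets. Red points rose, blue points fell, open points did not pass (limma, adjusted p under 0.05), and black lines are medians. The medians are 0.51 for the 10 genes, 2.32 for the genes listed as PERK targets and -0.089 for translocation and export.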

How the data were processed

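Expression was measured by RNA-seq in 18 libraries of IMR90 cells, 3 replicates in each of 6 groups taken from the labels. The study states that replicates are biological. RNA was extracted with Trizol, libraries were made with the TruSeq RNA V2 kit, which does not mark the strand, and single-end reads of 100 nt were sequenced. Per the submitters' processing notes, Trimmomatic 0.32, STAR 2.5.2b, featureCounts of Subread 1.5.0-p3, DESeq2 and build GRCh38.p7 were used; the annotation is not given in the sources used here. The deposited signal is the authors' count of reads per gene over the DESeq2 size factor. Multiplied by the size factor, 100% of the values came out as whole reads (tolerance 0.01 of a read), and these recovered reads were used for count tests, in which edgeR called 7281 and DESeq2 7181 genes in the tBHP response of PBS cells. The table also holds the authors' p-value, q-value and rank, which were not used.

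Genes with a mean value of at least 10 (13686) were tested on log2(value + 1) with limma 3.58.1 in R 4.3.3, a trended prior variance and a mean for each group; tests were two-sided, with Benjamini-Hochberg adjustment over all genes (threshold 0.05). Fold changes on this scale are understated for low genes. The 12 comparisons were 3 tBHP responses, 6 differences between pre-incubations and 3 interactions. The 10 genes and the 6 lists were chosen with earlier results of these data known. All 10 genes were named, and from each list the 2 genes with the smallest p that rose and the 2 that fell in PBS cells, besides XBP1, ATF4, DDIT3, ATF6, ERN1 and EIF2AK3. In comparisons where none of the 10 passed, the one with the smallest p was named. Alternatives were pseudocounts of 0.1 and 5, a minimum mean of 50 or no filter, TMM scaling, quantile normalization, edgeR 4.0.16 (quasi-likelihood) and DESeq2 1.42.0 on the recovered reads, only the compared groups, library weights, a replicate block, removal of a trend with transcript GC content and length (splines with 5 degrees of freedom, GENCODE release 29, available for 91.5% of the genes), and each library left out in turn. Leaving out replicate 2 of the fNSF-HA cells and replicate 3 of the cNSF-HA cells with tBHP together was chosen after seeing the data. The limma, edgeR and DESeq2 code was tested on simulated data. Chi-square per degree of freedom between replicates was 1.48 to 2.69 without tBHP and 2.86 to 71.2 with it, so with tBHP the spread between replicates, and not read depth, set the precision.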

Additional observations from a re-analysis of the deposited data

How the results depend on the processing

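The counts of the 10 genes that rose with tBHP stayed between 7 and 10 after PBS, 8 and 10 after cNSF-HA and 7 and 10 after fNSF-HA over all settings, and 0 fell, while 9.62% to 30.9%, 9.77% to 32.7% and 7.54% to 34.9% of all genes rose, the lowest with no filter and the highest with library weights. Between pre-incubations with tBHP, DESeq2 called 1 gene for cNSF-HA against PBS, 2 for fNSF-HA against PBS and 1 for cNSF-HA against fNSF-HA, and limma with library weights called 1, 5 and 4, and 3 for the difference in response of fNSF-HA against PBS. With each library left out, these counts ranged from 0 to 4 for fNSF-HA against PBS and from 0 to 4 for cNSF-HA against fNSF-HA, the 4 being without replicate 3 of the fNSF-HA cells with tBHP. In the fit of only the compared groups, 1 gene (DNAJC3) was called for cNSF-HA against fNSF-HA without tBHP, and 7.16% of all genes. The cause of these differences was not tested. With both replicate 2 of the fNSF-HA cells and replicate 3 of the cNSF-HA cells with tBHP left out, 10 of 10 genes rose after cNSF-HA and 10 of 10 after fNSF-HA (26.9% of all genes in each), and 0 were called between pre-incubations or responses. List counts over 1.5 times apart stand here beside the share of all genes called, which after cNSF-HA and fNSF-HA was 50.8% and 41.9% in the fit reported, 66.0% and 71.6% with library weights, and 54.9% and 55.4% with those 2 libraries left out. After cNSF-HA, sensors and transcription factors called went from 5 to 9 and 8 in these fits, and translocation and export genes from 8 to 14 with library weights. After fNSF-HA, degradation genes went from 8 to 14 and 13 in these fits, and translocation and export genes from 9 to 16 with library weights. With only the compared groups (31.2% of all genes), other folding genes went from 16 to 9 and translocation and export genes from 9 to 5, as the latter did without replicate 2 or 3 of the fNSF-HA cells without tBHP (34.9% of all genes in each).

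Directions turned for a few genes. Quantile normalization gave -0.078 for HSP90B1 and -0.015 for SEC61A1 in PBS cells, and GC and length correction gave -0.035 for SEC61A1. The change of ATF6 became 0.18, 0.19 and 0.15 in PBS, cNSF-HA and fNSF-HA cells with that correction and passed. With library weights it was -0.12 in cNSF-HA cells and passed as a fall (adjusted p = 0.0317, limma). In fNSF-HA cells it became 0.011 with TMM scaling and 0.020 in edgeR. With 1 library left out it ran there from -0.15 to 0.061, the latter without replicate 3 with tBHP. EIF2AK3 in cNSF-HA cells was -0.013, -0.028 and -0.044 without replicate 1 before tBHP and replicates 1 and 2 with tBHP, with a range up to 0.20 over the libraries left out. It passed with library weights at 0.17 in cNSF-HA cells (adjusted p = 0.0228, limma) and 0.18 in fNSF-HA cells (adjusted p = 0.00171, limma). In edgeR it passed in fNSF-HA cells at 0.27 (adjusted p = 0.0454). SDF2L1 in fNSF-HA cells ranged from -0.020 without replicate 3 with tBHP to 0.57 without replicate 2.

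Nothing in the labels says what a shared replicate number marks, and the samples were treated as unpaired: in each of the 9 comparisons of 2 groups at least 1 of the 3 correlations of same-numbered deviations was under 0.1, with values from -0.12 to 0.33. From 2 to 5 of 6 libraries correlated best with their own number, 5 of 6 in the response of PBS cells and in cNSF-HA against fNSF-HA without tBHP. A partial pairing is not excluded by this. With the replicate number as a block, 7, 10 and 8 genes rose, as without it.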
